A study of Mus musculus with 2 samples.

Results

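The mRNA levels of 6 caspase genes, the apoptosome scaffold gene Apaf1 and the caspase inhibitor gene Xiap were compared in mouse leukemic stem cells (LSCs) of a chronic myeloid leukemia (CML) model. The members were taken by gene symbol, and all 8 were found among the 23284 symbols of the deposited tables. They fall into initiator caspases (Casp2, Casp8 and Casp9), an executioner caspase (Casp6), inflammatory caspases (Casp1 and Casp4), the scaffold (Apaf1) and the inhibitor (Xiap). RNA-seq was made of 1 WT and 1 STAP-1 KO library, and the stated aim of the comparison was to learn more about the effects of the adaptor protein STAP-1. Each genotype was sequenced as 1 library, so that a difference between them cannot be checked against replicates and no p-value was computed.

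In both groups, LSK cells (lineage-negative, Sca-1+ and c-Kit+) from the bone marrow (BM) of donors on the C57BL/6J background were transduced with a retrovirus that carries human p210 BCR-ABL and green fluorescent protein (GFP). The donors were wild type or had a targeted disruption of the STAP-1 gene. The transduced cells were given to lethally irradiated C57BL/6SJL recipients together with helper BM cells of that strain, and GFP+ CD45.2+ LSK cells were sorted at day 11 after the first transplantation. Mice were 8 to 14 weeks old. BCR-ABL is expressed here from a viral vector and not from its own locus. How many animals went into each library is not given in the sources used here.

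Caspases are cysteine proteases that are made as inactive precursors. Initiator caspases are switched on in large complexes: Casp8 at death receptors, Casp9 on the Apaf1 apoptosome once cytochrome c has left the mitochondria, and Casp2 on the PIDDosome. They cleave executioner caspases, which dismantle the cell, whereas inflammatory caspases act in inflammasomes, mature interleukins and open gasdermin pores. Xiap binds and blocks active Casp9 but is not known to block Casp6. These proteins are controlled largely by cleavage and binding, which mRNA levels do not measure.

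The coding bases that end at the catalytic pentapeptide are shown because they carry what the 6 caspases share. In each line the 15 bases in capitals encode the pentapeptide with the active-site cysteine (in single letters, Q-A-C-X-G, with X any residue), and the 15 bases in lower case lie just before it. All were read 5′ to 3′ from the longest coding transcript of GENCODE M21 (GRCm38), on the plus strand.
Casp1: aaggtgatcattattCAGGCATGCCGTGGA
Casp2: aaaatgttcttcatcCAAGCATGTCGTGGA
Casp4: aaagtcatcattgtgCAGGCCTGCAGAGGT
Casp6: aagatatttatcatcCAGGCCTGTCGGGGT
Casp8: aagatctttttcattCAGGCTTGCCAAGGA
Casp9: aagctcttcttcatcCAGGCCTGCGGTGGT

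The Casp1 bases are in exon 6 of 10 (chr9:5303744-5303773), the Casp2 bases in exon 8 of 11 (chr6:42276755-42276784) and the Casp4 bases in exon 5 of 9 (chr9:5324928-5324957). The Casp8 bases are in exon 8 of 9 (chr1:58844598-58844627) and the Casp9 bases in exon 6 of 9 (chr4:141807232-141807261). In Casp6 the site is split by an intron, with 18 bases at the end of exon 5 of 7 (chr3:129910681-129910698) and 12 at the start of exon 6 (chr3:129912118-129912129). The pentapeptide was found once in each caspase and in neither Apaf1 nor Xiap. Outside it the proteins differ widely. Between pairs of caspases, 25.1% (Casp4 and Casp6) to 46.5% (Casp1 and Casp4) of the aligned residues were identical. No stretch of 75 bases, the length of a read, was shared between one member and another. Of the stretches in the longest coding transcript, 2.27% of Casp8, 0.549% of Casp9 and 0.37% of Xiap also occurred in transcripts of other genes, and none of the other 5 members.

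The deposited values are FPKM, that is, fragments divided by the exon length of the gene and by the mapped fragments of the library. They are levels per length, but ratios between the libraries moved with gene length (described below), so that levels of genes of different length compare differently in the 2 libraries. Low values lay on steps of whole reads, and these gave effective depths of 7510000 reads for WT and 10470000 for STAP-1 KO. At these depths 51.3% of 382 low values in WT lay within 0.02 of a whole read, and 52.4% of 441 in STAP-1 KO. Chance gives 4% at a setting fixed beforehand, but the depths were chosen to make this share as large as possible. The estimated reads of a gene below are its FPKM value turned back into reads with that depth and its longest coding transcript. The 95% intervals are exact Clopper-Pearson intervals from those reads, and for sums and for ratios of 2 genes they come from the summed counting variances. They cover counting error only, since amplified reads without molecular identifiers are not independent molecules, and they say nothing about the spread between animals. Stap1 itself had 62.0 FPKM in WT and 0.309 FPKM in STAP-1 KO, as the labels state. The libraries differed in more than Stap1: the 10 mast cell and basophil markers summed to 51441 FPKM in WT and 5323 in STAP-1 KO. Of 4 genes listed for the sorted cells, 3 (Kit, Ly6a and Ptprc) were at least 2-fold lower in STAP-1 KO. After the length correction described below 2 were (Kit and Ly6a). Cd34, which was not used in the sort, was within 2-fold, with 281 FPKM in WT and 194 in STAP-1 KO. None of these 4 was listed at 0, and they summed to 1141 FPKM in WT and 368 in STAP-1 KO. Without Kit, which alone had 468 and 30.1 FPKM, the sums were 673 and 337.

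All 8 members had at least 0.1 FPKM in both libraries. Their levels ran from 2.40 (Xiap) to 50.2 FPKM (Casp8) in WT and from 1.39 (Xiap) to 92.8 FPKM (Casp8) in STAP-1 KO. A difference was counted when 1 library was at least 2-fold above the other. By this rule 1 member, Casp1, was higher in STAP-1 KO, beside 12.3% of the 12507 genes above the floor. Casp9 and Apaf1 were lower, 2 of 8 beside 22.9% of those genes. The other 5 were within 2-fold. With so few members these shares are not set apart from the background. The median log2 ratio of the members (STAP-1 KO over WT, 0.1 FPKM added to each value) was 0.26, beside -0.04 for the 10974 genes that averaged 1 FPKM or more. In the plot of both levels, the lines of the caspases other than Casp9 lead upward and those of Casp9, Apaf1 and Xiap downward.

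**Figure D1:**
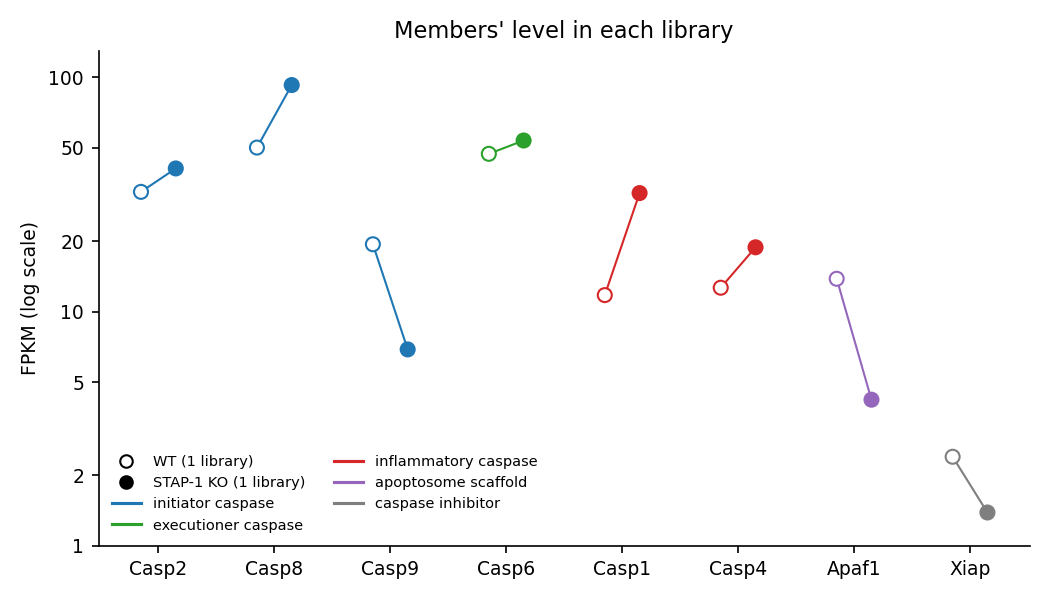
FPKM of each member (log axis) in the WT library (open circles) and the STAP-1 KO library (filled circles), coloured by role. Each circle is 1 library and has no replicate error. Casp9 went from 19.4 to 6.89 FPKM and Apaf1 from 13.8 to 4.20 FPKM, and Casp1 from 11.8 to 32.1 FPKM.

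The ratio of the libraries depended on transcript length over all genes, and the members span that range, so each ratio is also given relative to genes of like length. Over the 10862 genes that averaged 1 FPKM or more and had an annotated length, Spearman's rank correlation between log2 ratio and length was -0.40, as a description across genes that share both libraries. The median log2 ratio was 0.51 in the bin of the shortest transcripts and -1.01 in that of the longest. Casp1, Casp4 and Casp6 (1435 to 1497 bases) lie where the median was 0.44. Apaf1 and Xiap (6577 and 6834 bases) lie where it was -0.97. After the median of the length bin was taken off each log2 ratio, 1 member, Casp1, was 2-fold higher without a pseudocount, beside 11.5% of the 12360 genes above the floor with an annotated length, but its log2 ratio with 0.1 FPKM added was 0.997, just short of 2-fold. There was 1 member at least 2-fold lower (Casp9, beside 19.0% of those genes), and the median of the members was 0.17. The cause of the trend was not tested.

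**Figure D2:**
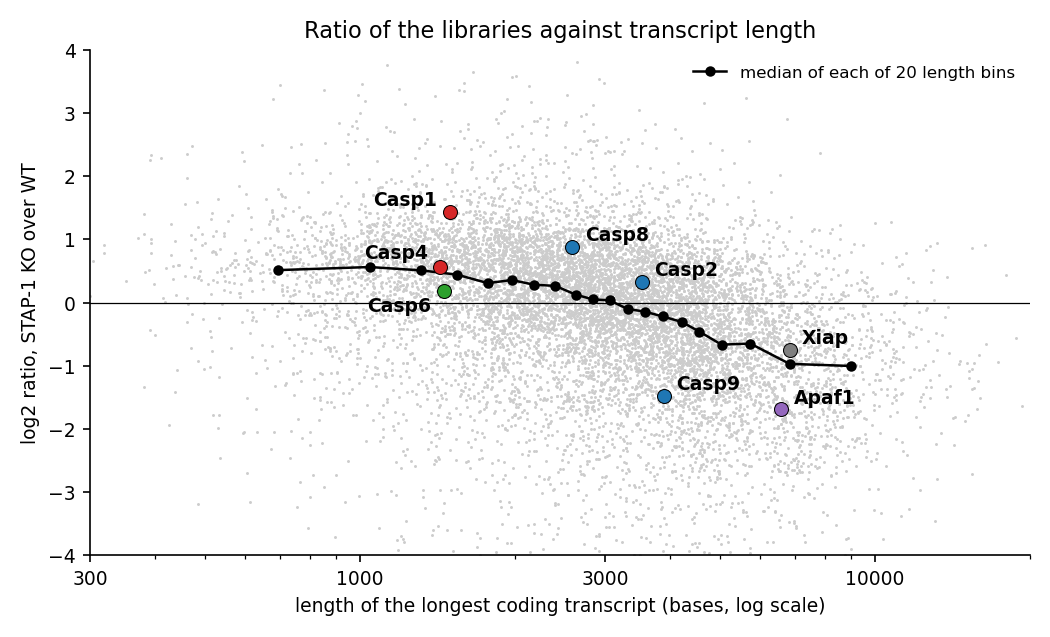
Log2 ratio of STAP-1 KO over WT (0.1 FPKM added to each value) against the length of the longest coding transcript in bases (log axis). Grey points are the 10862 genes, of which 205 lie outside the plotted window, the black line joins the medians of 20 length bins, and the coloured points are the members. Casp1, Casp8 and Casp2 lie above the line, Casp9 and Apaf1 below it, and Xiap just above it.

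Among the initiator caspases, Casp8 and Casp9 went in opposite directions. Casp8, the death receptor initiator (chr1:58795374-58847503, plus strand), had the highest level of all members in both libraries, 50.2 FPKM in WT and 92.8 FPKM in STAP-1 KO, above 81.3% and 89.2% of the 12507 genes with at least 0.1 FPKM in both. That is 1.85-fold higher in STAP-1 KO (95% interval 1.71 to 2.00, about 892 and 2309 estimated reads), just inside the 2-fold limit. After the length correction its log2 ratio went from 0.89 to 0.76, and over its coding transcripts the corrected value ran from 0.44 to 0.76.

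Casp9, the apoptosome initiator (chr4:141793612-141815976, plus strand), had 19.4 FPKM in WT and 6.89 FPKM in STAP-1 KO. It was 2.81-fold lower in STAP-1 KO (2.43 to 3.27, about 536 and 266 reads), and its level went from above 60.2% of the same 12507 genes to above 43.3%. Its log2 ratio of -1.48 was -1.26 after the length correction. With the shorter coding transcripts of Casp9 as its length (down to 790 bases) it would be as low as -1.99, so it stayed past 2-fold for every coding length. The 3′ end of the gene overlaps Cela2a and Ctrc on the other strand, and the library kit does not mark strand. Both of these pancreatic genes were listed at 0 in both libraries. The part of reads from this overlap in the Casp9 value was not tested.

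Casp2, the PIDDosome initiator (chr6:42264985-42282508, plus strand), had 32.5 FPKM in WT and 40.9 FPKM in STAP-1 KO, 1.26-fold higher (1.15 to 1.37). It ranked 3 of 8 among the members in both libraries, and its log2 ratio was 0.33 as deposited and 0.47 after the length correction.

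The 3 initiators together had 102 FPKM in WT and 141 FPKM in STAP-1 KO (1.38-fold, counting interval 1.31 to 1.45). The sum held 1 gene that was lower and 2 that were higher. For each Casp9 FPKM there were 2.59 of Casp8 in WT and 13.5 in STAP-1 KO, a 5.20-fold wider gap (4.41 to 6.14). Both transcripts were measured in the same library, so no scaling of the libraries moves this value, and after the length correction its log2 change went from 2.38 to 2.03. The gap between Casp2 and Casp9 widened 3.54-fold in the same way, from 1.67 to 5.93.

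Casp6, the executioner (chr3:129901425-129914103, plus strand), had 47.2 FPKM in WT and 53.8 FPKM in STAP-1 KO and ranked 2 of 8 among the members in both. The ratio of 1.14 (1.01 to 1.29) barely cleared 1 by counting error. Its direction depended on the transcript length used for the correction: the deposited log2 ratio of 0.19 became -0.25 with the longest coding transcript and 0.25 with the longest transcript of any type. In the deposited values Casp6 was the member nearest to an equal level in both libraries, whereas after the correction by the longest coding transcript Casp4 (0.13) and Xiap (0.22) were nearer.

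Of the 3 caspase classes, the inflammatory caspases had the largest ratio of summed deposited values. Casp1, which matures interleukin-1β and interleukin-18 (chr9:5298517-5307265, plus strand), had 11.8 FPKM in WT and 32.1 FPKM in STAP-1 KO. It was 2.73-fold higher in STAP-1 KO (2.22 to 3.39, about 113 and 433 reads). After the length correction its log2 ratio went from 1.44 to 0.997, which is at the limit of 2-fold. Casp1 has a single annotated transcript, and with the bins drawn over the longest transcripts of any type the value was 1.03.

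Casp4, the sensor of intracellular lipopolysaccharide (chr9:5308828-5336783, plus strand), starts 1562 bases beyond the end of Casp1 on the same strand. It had 12.6 FPKM in WT and 18.8 FPKM in STAP-1 KO, 1.49-fold higher (1.19 to 1.87), with a log2 ratio of 0.57 that became 0.13 after the length correction. Casp1 and Casp4 had near-equal levels in WT (0.93 of Casp1 for each of Casp4), whereas in STAP-1 KO Casp1 was 1.70 times Casp4. This 1.83-fold shift (1.35 to 2.48) did not move with the length correction, since both genes are in the same length bin.

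Summed, the inflammatory members had 24.4 FPKM in WT and 50.9 FPKM in STAP-1 KO (2.09-fold, 1.79 to 2.42), with a log2 ratio of 1.06 that was 0.62 after the length correction. By class, the inflammatory genes made up 14.1% ± 1.64 of the FPKM of the 6 caspases in WT and 20.7% ± 1.34 in STAP-1 KO (half-width of the 95% counting interval). The executioner Casp6 made up 27.2% ± 2.03 and 21.9% ± 1.37. The initiators made up 58.8% ± 2.10 and 57.3% ± 1.5, and within them Casp8 went from 28.9% to 37.8% and Casp9 from 11.2% to 2.81%. After the length correction the shares in STAP-1 KO were 17.4% for the inflammatory genes, 18.4% for Casp6 and 64.2% for the initiators, so that the initiator share was then above that in WT.

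**Figure D3:**
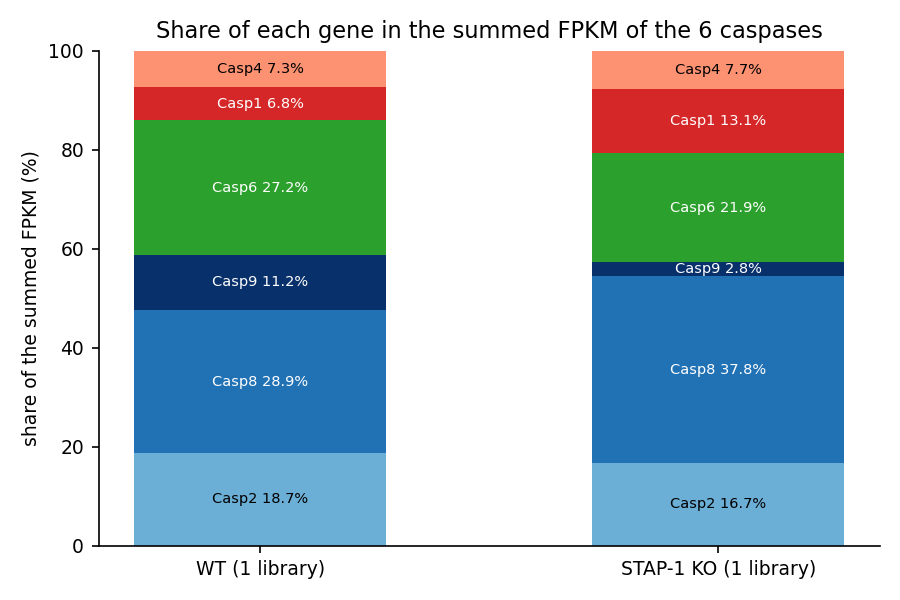
Share of each gene in the summed FPKM of the 6 caspases, in percent, for the WT and the STAP-1 KO library (1 each). Initiators are blue, the executioner green and the inflammatory caspases red, and the bars show Casp9 at 11.2% and 2.81%, Casp8 at 28.9% and 37.8% and Casp1 at 6.77% and 13.1%.

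Apaf1, the scaffold on which Casp9 is activated (chr10:90989311-91082770, minus strand), had 13.8 FPKM in WT and 4.20 FPKM in STAP-1 KO. It was 3.28-fold lower in STAP-1 KO (2.85 to 3.79, about 659 and 280 reads), the largest ratio among the members in the deposited values. The pair Casp9 and Apaf1 had the lower value in STAP-1 KO in both cases. There were 1.40 of Casp9 for each of Apaf1 in WT and 1.64 in STAP-1 KO, a change of 1.17-fold whose interval (0.953 to 1.43) includes 1 and whose log2 value went from 0.22 to -0.53 after the length correction. Apaf1 is a long transcript, and after the length correction its log2 ratio of -1.69 became -0.72, within 2-fold. This was smaller in size than those of Casp9 and Casp1 and near that of Casp8 (0.76). With the longest transcript of any type as the length, Apaf1 was at -0.75 and Casp8 at 0.73. The corrected Apaf1 value rests on which transcript was counted: over the 5 coding transcripts of 1596 to 6577 bases, it ran from -2.13 to -0.72.

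Xiap, the inhibitor (chrX:42059679-42109656, plus strand), had the lowest level of all members, 2.40 FPKM in WT and 1.39 FPKM in STAP-1 KO, above 22.0% and 19.9% of the 12507 genes above the floor. It was 1.73-fold lower in STAP-1 KO (1.31 to 2.29, about 119 and 96 reads). Its direction turned with the length correction, from a log2 ratio of -0.75 to 0.22, and over the 6 coding transcripts the corrected value ran from -1.26 to 0.22. The ratio of the 6 summed caspases to Xiap was 72.4 in WT and 177 in STAP-1 KO, a 2.44-fold difference (1.86 to 3.21) whose log2 value went from 1.29 to 0.13 after the correction. Casp9, which Xiap blocks, went the other way. Its ratio to Xiap was 8.09 in WT and 4.97 in STAP-1 KO, a change of 0.615-fold (0.453 to 0.835). The log2 value of that change was -0.70 as deposited and -1.45 after the correction. Xiap lies on the X chromosome, and Xist, named here after its values were seen, was listed at 0 in WT and had 0.849 FPKM in STAP-1 KO. The part of this in the Xiap values was not tested.

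**Figure D4:**
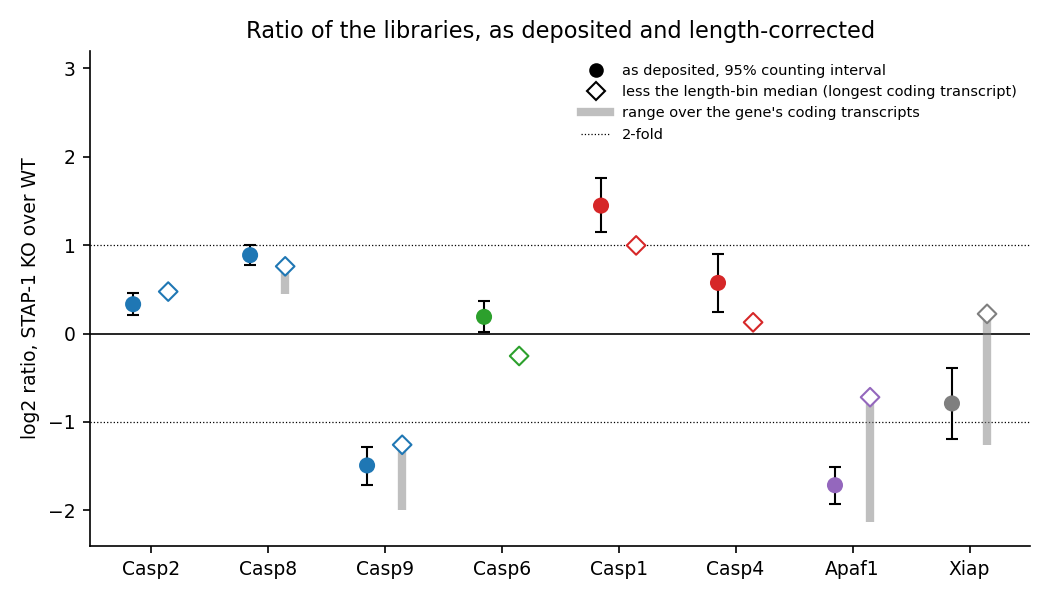
Log2 ratio of STAP-1 KO over WT for each member. Filled circles are the deposited FPKM with no pseudocount and their 95% counting intervals, open diamonds the log2 ratio (0.1 FPKM added) less the median of its length bin, grey bars the range of the corrected value over the gene's coding transcripts, and dotted lines 2-fold. Casp9 stayed below the lower dotted line in all of these, Apaf1 and Xiap had the longest grey bars, and the Casp6 and Xiap diamonds lie on the other side of 0 from their circles.

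Casp12, the next inflammatory-type gene after Casp4 on chromosome 9 (8646 bases apart, same strand), had 1.78 FPKM in WT and 6.38 FPKM in STAP-1 KO, 3.58-fold higher. Casp1, Casp4 and Casp12, which follow each other on the chromosome, thus all had the higher value in STAP-1 KO. The epidermal Casp14 was listed at 0 in both.

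The genes that act with each class were taken from lists written for these members. Of their 55 genes 52 had at least 0.1 FPKM in both libraries, and 11 of these (21.2%) were at least 2-fold higher and 14 (26.9%) at least 2-fold lower, beside the 12.3% and 22.9% of all genes above.

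Of 12 genes of the death receptor complex and of necroptosis, which Casp8 restrains, 1 was at least 2-fold higher and 3 were lower, with a median log2 ratio of -0.23. With transcript length corrected for, 2 were lower and the median was 0.19, on the other side of 0. Tnfrsf1a, the tumor necrosis factor receptor, had 5.07 FPKM in WT and 21.3 FPKM in STAP-1 KO. The death receptor Fas had 6.59 and 3.23 FPKM, and Cflar, the decoy that restrains Casp8, had 6.59 and 3.13 FPKM, with a log2 ratio of -1.05 that became -0.08 after the length correction. Casp8 therefore stood at 7.62 times Cflar in WT and 29.7 times in STAP-1 KO, and the log2 value of this 3.90-fold change (3.22 to 4.72) went from 1.96 to 0.86 after the length correction. Mlkl, the executor of necroptosis, had 28.3 and 55.2 FPKM. The 2 PIDDosome genes upstream of Casp2 were near equal, with 9.02 and 9.40 FPKM for Pidd1 and 3.24 and 3.91 FPKM for Cradd.

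All 5 genes whose products are released from mitochondria in apoptosis had the higher deposited value in STAP-1 KO, beside 48.3% of the 10974 genes, with a median log2 ratio of 0.64. After the length correction 4 of 5 were above 0, Endog was at -0.12 and the median was 0.42. Only Cycs, which encodes the cytochrome c that Apaf1 binds, was past 2-fold, with 2.57 FPKM in WT and 5.73 FPKM in STAP-1 KO. Diablo, whose product displaces Xiap from caspases, had 56.7 and 82.6 FPKM, and Htra2, with the same action, had 61.2 and 105 FPKM. Aifm1 had 51.0 and 79.6 FPKM, and the nuclease gene Endog 12.0 and 16.3 FPKM. Casp9 and Apaf1 had the lower deposited value.

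Of 9 genes that are relatives of Xiap or encode its regulator, 8 passed the floor, and of these 5 were at least 2-fold lower and 2 at least 2-fold higher. The counts were 3 lower and 2 higher after the length correction. Birc3 had 44.6 FPKM in WT and 14.5 FPKM in STAP-1 KO, and Naip5 had 3.75 and 0.846 FPKM. Birc5 (survivin), which is known for its part in mitosis, had 118 and 276 FPKM. Xaf1, whose product antagonizes Xiap, had 3.46 and 12.1 FPKM. The NAIP genes are near-identical copies, so how their reads were shared out is uncertain.

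Of the 14 inflammasome genes above the floor (of 15), 4 were at least 2-fold higher and 5 lower, with a median log2 ratio of -0.72. The 4 higher genes all had under 1 FPKM in WT, so that 0 of them passed a floor of 1 FPKM. Corrected for length, 4 genes were higher and 7 lower and the median was -0.88. Over the 11 genes that averaged 1 FPKM or more, which leave out 3 of the higher genes, the medians were -0.85 and -1.41. The sensor gene Nlrp6 had 56.3 FPKM in WT and 10.5 FPKM in STAP-1 KO. The sensor gene Nlrp3 had 1.85 and 0.376 FPKM, and Nek7, whose product Nlrp3 needs, had 161 and 36.9 FPKM. Il1b, the main substrate of Casp1, had 199 and 39.5 FPKM, 5.04-fold lower, so that enzyme and substrate transcripts differed in opposite directions. Of the 10 caspase substrates and effectors, 2 were higher and 1 was lower, and 1 in each direction after the length correction, where Gas2 was at 0.94. Lmna, the lamin that Casp6 cleaves, had 163 and 42.8 FPKM, and Panx1, a membrane channel that caspases open, had 10.9 and 25.7 FPKM. The microfilament gene Gas2 had 2.90 and 6.93 FPKM, and Rock1, the kinase behind membrane blebbing, had 28.4 and 15.3 FPKM, with a log2 ratio that turned from -0.88 to 0.09 after that correction.

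**Figure D5:**
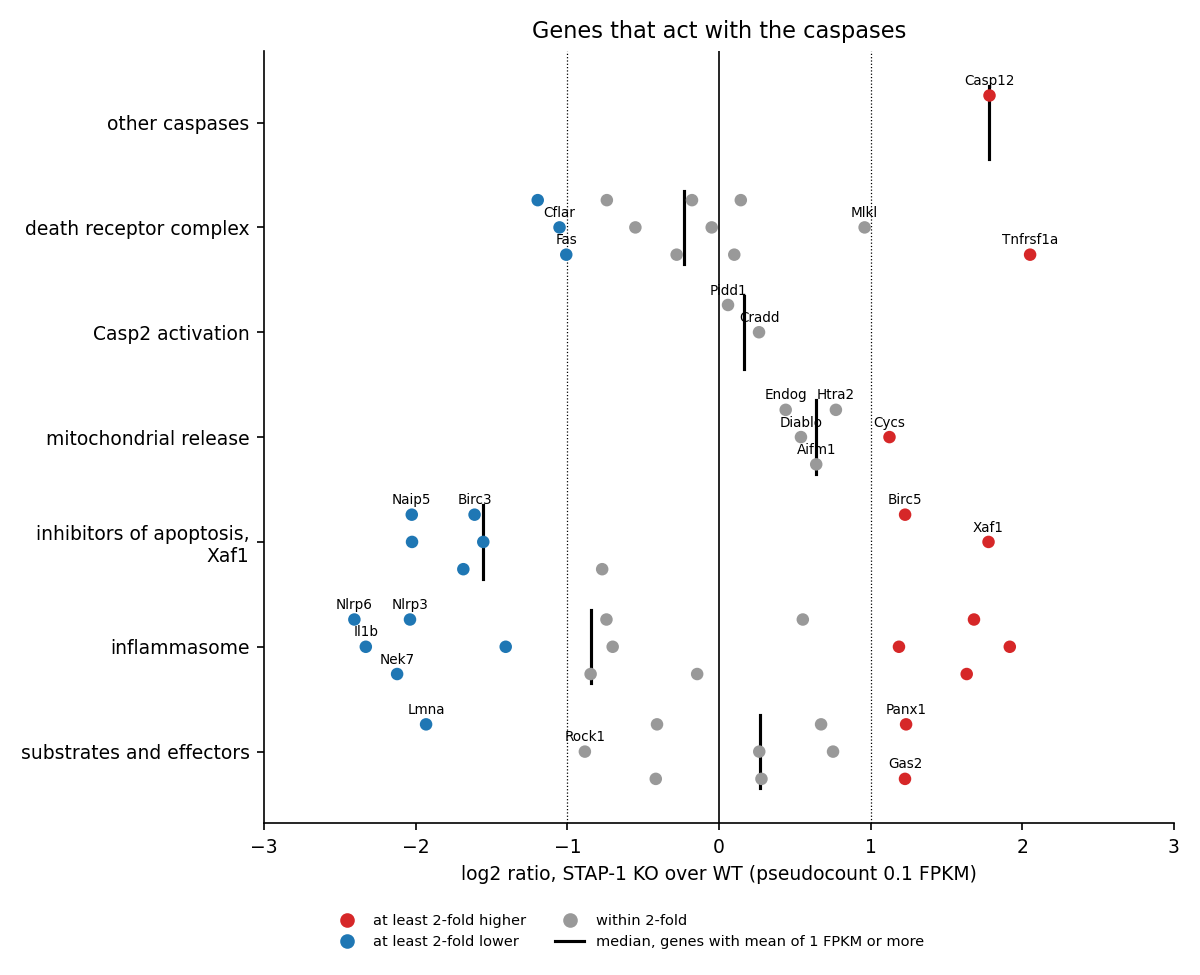
Log2 ratio of STAP-1 KO over WT (0.1 FPKM added to each value) for the genes of each list with at least 0.1 FPKM in both libraries. Red points are at least 2-fold higher, blue points at least 2-fold lower and grey points within 2-fold, dotted lines mark 2-fold, and black bars are medians of genes that averaged 1 FPKM or more. All 5 genes of mitochondrial release lie above 0 in these uncorrected values, as do 48.3% of all genes that averaged 1 FPKM or more, and the lists of inhibitors and of inflammasome genes have points past both dotted lines.

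Markers of other cell types differed between the same libraries. Of 10 mast cell and basophil markers 9 were at least 2-fold lower in STAP-1 KO, with the 9.66-fold lower sum given above. Of 10 neutrophil and granule markers 4 were higher and 4 lower, and their sum went from 933 to 4348 FPKM. The 4 higher were Mpo, Elane, Prtn3 and Ctsg, which made up most of the sum in STAP-1 KO. The 4 lower were Ltf, Ngp, Camp and S100a9. Of 10 monocyte and macrophage markers 3 were higher and 5 lower, with sums of 255 and 166 FPKM, or 220 and 73.7 FPKM without Lyz2. The 5 eosinophil markers summed to 37.9 and 87.0 FPKM, 7 erythroid markers to 2554 and 1281 FPKM, 5 megakaryocyte markers to 194 and 130 FPKM, and 5 T and NK cell markers to 467 and 802 FPKM, nearly all of it from Nkg7, without which the sums were 3.75 and 6.94 FPKM. Single genes also turned the eosinophil sums, which were 35.8 and 25.3 FPKM without Prg2, and the megakaryocyte sums, which were 70.6 and 97.2 FPKM without Itga2b. Of the 4 B cell markers, Cd79b alone made up nearly all of the sums of 3.10 and 17.9 FPKM, which were 0 and 0.171 FPKM without it, and Pax5 and Ebf1 were listed at 0 in both libraries. The part of these markers in the caspase values was not tested, and in bulk RNA fewer cells of a type and less RNA per cell cannot be told apart.

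The 250 bases before the start of transcription were searched in the RefSeq promoter table (GRCm38) for TTCNNNGAA, the STAT-type motif, and GAAANNGAAA, the interferon-response type, on both strands. All 8 members were matched, with 11 promoters. None held either motif, beside 7.02% and 2.98% of the 32851 promoters in the table.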

How the data were processed

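RNA-seq was made of 1 WT and 1 STAP-1 KO library of CML LSCs. RNA was extracted with a miRNeasy kit per the labels and an RNeasy Mini kit per the methods, and cDNA was made with SMART-Seq v4 and Nextera XT, which do not mark strand. The authors mapped 75-base single reads to mm10 with TopHat2 2.0.13 and Bowtie2 2.2.3 and deposited FPKM values from Cuffnorm of Cufflinks 2.2.1. SAMtools 0.1.19 is given in the submitters' processing notes, whereas the methods name another version. The gene annotation and the scaling used by Cuffnorm are not given in the sources used here.

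Symbols were matched to GENCODE M21 (20911 as written, 1914 through an older symbol, 459 not). Effective depth was read from the steps of values below 0.4 FPKM in genes with 1 transcript longer than 600 bases. A gene counted as different where one library was 2-fold or more above the other, without a pseudocount, and neither was below 0.1 FPKM. Log2 ratios of genes and sums used 0.1 FPKM. The length correction took off the median of 20 bins of the longest coding transcript. Protein identity came from pairwise alignment of translated GENCODE transcripts. Shared stretches were exact matches of 75 bases. Python 3.11.15, numpy 2.4.6, pandas 2.3.3, scipy 1.17.1 and Biopython 1.88 were used, and the steps were tested on simulated data. Older symbols of partner and marker genes were matched through RefSeq synonyms (Pidd1 is listed as Lrdd).

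The members, the lists and the cut-offs were chosen with earlier results of these data known. The text names all members, Stap1, every gene of a partner list of 5 or fewer and otherwise the 4 with the largest absolute log2 ratio at a pseudocount of 1 FPKM. Some genes of these lists are not reported here and enter no count or sum of them. Genes next to a member, Xist and single cell type markers other than those at 0 were named after their values were seen. Alternatives changed the floor, the cut-off, the pseudocount, the scaling and the length correction, and a correction by the longest transcript of any type and a length-corrected share were added after seeing the data. With 1 library for each genotype, no test was run.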

Additional observations from a re-analysis of the deposited data

How the results depend on the processing

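The 2 lower and 1 higher members were the same in number under 3 rescalings of the libraries, which multiplied STAP-1 KO by 1.03 to 1.07. A floor of 1 FPKM and no floor above 0 could not change these counts, since the lowest member value was 1.39 FPKM. With a cut-off of 1.5-fold, 3 members were lower and 2 higher, and 36 partner genes were past it in place of 25. With a floor of 1 FPKM 18 partner genes were past 2-fold, and 23 after the length correction. With a cut-off of 4-fold, 0 members were lower, 0 were higher and 10 partner genes were past it. After the length correction 1 member was lower, the log2 ratio of Casp6 was -0.25 in place of 0.19, and that of the summed inflammatory caspases was 0.62 in place of 1.06. With equal FPKM sums the log2 ratio of the summed initiators was 0.57 in place of 0.46. The inflammatory share was 6.69 percentage points higher in STAP-1 KO, 4.67 points in estimated reads and 3.34 points after the length correction. Over the 8 members and 7 settings each, 42 of 56 log2 ratios moved by no more than the 95% half-width that the summed counting variances give. The other 14 moved by more, and all 14 came under a length correction. With the longest coding transcript as the length, each of the 8 members moved by more than that half-width. Pseudocounts and rescalings moved no member by more. Only 3 log2 ratios changed sign, all of Casp6 or Xiap under a length correction. With the longest transcript of any type as the length, Xiap was 0.19 and Casp6 0.25. The share over all listed caspases was not run. No paired analysis was possible because each genotype has 1 library. No value has a replicate error, and depth limits Xiap most, with 119 and 96 estimated reads.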

Other observations

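Apaf1 and Ikbip, named here after its values were seen, lie head to head on chromosome 10, with 169 bases between their starts in GENCODE M21. Ikbip had 16.9 FPKM in WT and 15.7 FPKM in STAP-1 KO (log2 ratio -0.11 as deposited and 0.00 after the length correction), whereas Apaf1 had 13.8 and 4.20 FPKM. At the Casp9 locus, the nearest protein-coding gene on the other side, Dnajc16, starts 2680 bases away on the minus strand and had 6.62 and 1.96 FPKM, with a log2 ratio of -1.71 beside -1.48 for Casp9. Dnajc16 has a transcript of 5969 bases, and after the length correction its log2 ratio was -1.06. Pla2g12a, upstream of Casp6, had 82.3 and 118 FPKM, with a log2 ratio of 0.52 as deposited and 0.07 after the length correction.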
